A study of Rattus norvegicus with 28 samples.

Results

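The genes described here belong to the integrated stress response. They are Atf4, the kinase genes Eif2ak3 and Eif2ak4 that act upstream of it, and transcription factors, enzymes, transporters and tRNA synthetases listed as its targets. The set was given as 36 gene symbols, and a gene belonged to it where its symbol stood in the expression table. Of these, 29 of the 17455 symbols in the table were found, and the transcript with the highest mean was used for each. A mean of at least 1 TPM (a transcript level scaled for length and library size) over the 28 libraries was required for testing, which 26 members met among 10275 genes tested. The other 3 were the chromatin-associated stress protein gene Nupr1, the secreted glycoprotein gene Stc2 and Phgdh, the first enzyme of serine synthesis. Nupr1 stayed at or below 0.287 TPM and Stc2 at or below 0.366 TPM in every library, and Phgdh was listed at 0 in all libraries except 1, at 0.0210 TPM. The symbols Sars, Wars, Nars, Tars, Mars, Yars and Lars were not in the table, which lists Sars1, Wars1, Nars1, Tars1, Mars1, Yars1 and Lars1, and these 7 genes are described beside the members.

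INS-1, the line from which RNA was measured, derives from a rat insulinoma and secretes insulin. Cells were wild type (WT) or carried an edit of Med14, a scaffold subunit of the Mediator complex, that puts alanine in the place of a serine (Med14 S983A) and so removes a residue that can be phosphorylated. The mutant cells are lines grown from sorted clones, and the labels do not say which line gave which library. Cells of both genotypes were held in serum-free medium and were left untreated (CON) or given 10 nM Ex-4 (exendin-4, which activates the receptor for GLP-1) or 10 µM forskolin (FSK), which activates adenylyl cyclase, for 1, 8 or 16 h. Each of the 14 groups had 2 libraries, which the study's methods call biological replicates. The labels do not say whether these were separate cultures, and p-values measure the spread between these libraries. The edit substitutes bases, with silent changes beside the serine codon, and removes no gene, so the level of Med14 RNA does not check the genotype labels.

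In the integrated stress response, kinases that sense unfolded proteins in the endoplasmic reticulum (ER), uncharged tRNA, heme shortage or viral RNA phosphorylate the translation factor eIF2alpha. Most translation slows, while ATF4 is translated more, and ATF4 with partners such as C/EBP proteins switches on genes for amino acid synthesis and uptake, tRNA charging and feedback. Beta cells rely on this pathway because insulin synthesis loads the ER, and the kinase PERK (Eif2ak3) is known to be needed for their survival. Because ATF4 activity is set largely at translation, levels of Atf4 RNA alone do not give the amount of the protein, which was not measured here.

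The libraries held 42551133 to 57231981 read fragments, except replicate 2 of Med14 S983A FSK 8 h with 92635979. Insulin, amylin and other beta cell markers were expressed in every library, and 9 of 10 markers of other pancreatic, stromal, endothelial and blood cells stayed at or below 0.925 TPM in every library, with Amy2a3 and Col1a2 listed at 0. The sum of these 9 was 0.249 to 0.341 TPM in WT CON, 0.668 to 0.985 in WT FSK 8 h, 1.17 to 1.69 in WT FSK 16 h and at or below 0.483 in every Med14 S983A group. The exception was Gcg, the glucagon gene of alpha cells, which moved with treatment and genotype. Gcg stood at 165 and 169 TPM in WT CON, 947 and 966 in WT Ex-4 16 h, 6.09 and 6.55 in Med14 S983A CON and 45.5 and 43.4 in Med14 S983A Ex-4 16 h, and the part of these markers in the results below was not tested. Differences are log2 differences of TPM + 1 with the standard error of the limma fit, and a gene was called where its Benjamini-Hochberg adjusted p was under 0.05 over all 10275 genes and the change passed 1.5-fold.

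In untreated WT cells the 26 tested members spanned levels from about 0.1 to over 400 TPM. Atf5, a relative of Atf4 that also acts in this response, was highest at 408 and 417 TPM in the CON libraries, next to the glycyl-tRNA synthetase gene Gars at 398 and 395 TPM, with both Gars libraries below both Atf5 libraries. Atf4 itself, at rn6 chr7:121480723-121482781, followed at 271 and 277 TPM. The genes that were to change most started low. Chac1, which encodes an enzyme that degrades glutathione, was at 3.04 and 2.65 TPM, Trib3, a pseudokinase that restrains ATF4, was at 1.60 and 2.30 TPM, and Slc7a11, the cystine and glutamate exchanger, was at 0.128 and 0.133 TPM, which is 27 and 34 fragments. At such levels the added 1 TPM shrinks the fold change, and values on fragments are given where this matters.

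ATF4 with a C/EBP partner binds a composite element, of which TGATGCAA is a common core, and cAMP-activated CREB binds TGACGTCA. These letters were searched on both strands in RefSeq promoter sequences of the rat build GRCr8, from 250 bases before to 50 bases after each annotated start. A promoter was found for 27 of the 29 members (none for Atf3 and Gars) and for all 7 genes under newer symbols. TGATGCAA stood in 4 of the 27, Chac1, Nupr1, Aars and Cars, and in 4 of the 7, Nars1, Tars1, Mars1 and Yars1, against 0.795% of all 33469 promoters. It stood in 1 of 7 other cytosolic synthetases, Iars1, and in 0 of 14 mitochondrial synthetases and 0 of 8 ER chaperone genes with a promoter. The wider form TGATGNAA, which includes TGATGCAA, also stood in Trib3 and Slc7a1, which made 6 of 27 members against 3.98% of all promoters. TGACGTCA stood in 1 member, Ppp1r15a, against 1.83% of all promoters. The shorter element TGACG, which TGACGTCA contains, stood in 9 of 27 members against 21.2% of all promoters. A match in these letters is not a bound site, and binding was not measured in these libraries.

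The stretches upstream of the start that hold the elements are shown for 4 genes with TGATGCAA from the set and its newer symbols, for the 2 members with the wider form alone and for the Ppp1r15a promoter with the CREB element. Coordinates are GRCr8, letters run 5′ to 3′ on the gene's strand, and capitals mark the element or its reverse complement. They lie at chr3:126795934-126796001, + strand, for Chac1, chr19:55908340-55908407, + strand, for Aars, chr2:62114803-62114859, - strand, for Tars1, chr7:65023754-65023800, - strand, for Mars1, chr3:161275534-161275584, - strand, for Trib3, chr12:11664428-11664487, + strand, for Slc7a1, and chr1:105139625-105139692, - strand, for Ppp1r15a.
Chac1: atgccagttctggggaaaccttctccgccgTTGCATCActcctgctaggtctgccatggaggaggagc
Aars: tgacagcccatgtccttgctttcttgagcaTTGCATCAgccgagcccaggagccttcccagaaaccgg
Tars1: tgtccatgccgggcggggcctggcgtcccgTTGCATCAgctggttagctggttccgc
Mars1: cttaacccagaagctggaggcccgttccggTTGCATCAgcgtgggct
Trib3: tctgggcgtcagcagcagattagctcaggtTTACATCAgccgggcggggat
Slc7a1: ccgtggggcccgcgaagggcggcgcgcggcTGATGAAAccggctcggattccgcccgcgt
Ppp1r15a: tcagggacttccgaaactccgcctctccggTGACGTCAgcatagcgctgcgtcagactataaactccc
In Chac1, Aars, Tars1, Mars1 and Trib3 the element runs on the opposite strand to the gene, in Slc7a1 it runs on the same strand, and the Ppp1r15a element reads the same on both. Psat1, Slc7a11, Asns and Ddit3 hold none of the searched letters in this window.

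**Figure D1:**
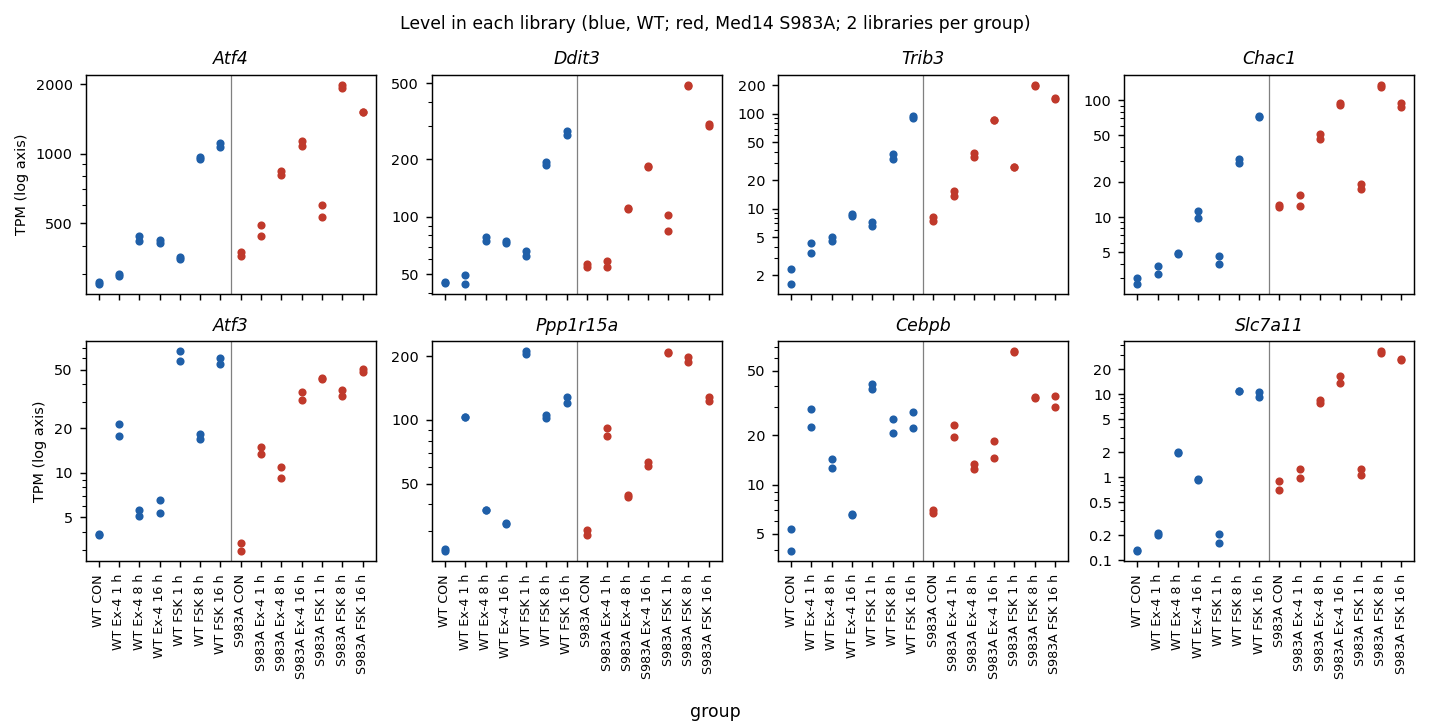
TPM on a log axis (each panel has its own range) of 8 members in each of the 28 libraries, ordered by genotype, treatment and time; each point is 1 library. Atf3, Ppp1r15a and Cebpb were raised at 1 h, while Atf4, Ddit3, Trib3, Chac1 and Slc7a11 were highest at 8 or 16 h of FSK.

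At 1 h, 6 members rose in each of WT Ex-4 and WT FSK and none was called lower: Atf3, Cebpb, Trib3, Ppp1r15a, Ddit4 and Slc7a5. Both comparisons used the same CON libraries. Over all genes, at Ex-4 1.75% were called higher and 1.12% lower, and at FSK 2.53% were called higher and 4.94% lower. Atf3, a stress-induced repressor that is also a target of cAMP signalling, was at 3.81 and 3.86 TPM in WT CON, 17.7 and 21.5 TPM at 1 h of Ex-4 and 57.05 and 66.4 TPM at 1 h of FSK. The 3 groups did not overlap, and the log2 changes were 2.09 ± 0.10 (SE, adjusted p = 4.4e-15) at Ex-4 and 3.69 ± 0.10 (SE, adjusted p = 8.5e-21) at FSK. Ppp1r15a, the GADD34 subunit that directs dephosphorylation of eIF2alpha, rose from 24.02 and 24.6 TPM to 103 and 104 TPM with Ex-4 and 204 and 210.4 TPM with FSK, by 2.05 ± 0.04 (SE, adjusted p = 6.6e-22) and 3.04 ± 0.04 (SE, adjusted p = 6.2e-26) on the log2 scale. Cebpb, a partner of ATF4 on its target genes, was at 3.90 and 5.38 TPM in CON, 22.7 and 28.98 TPM with Ex-4 and 38.4 and 41.3 TPM with FSK. All 4 treated libraries lay above both CON libraries, which were uneven, with log2 changes of 2.25 and 2.87. Ddit4, an inhibitor of the growth kinase complex mTORC1, rose by 1.35 and 2.93, Slc7a5, the large neutral amino acid transporter, by 0.97 and 1.12, and Trib3 by 0.73 and 1.43. Without WT CON replicate 1 the Trib3 change at Ex-4 was 0.55, and without WT Ex-4 1 h replicate 1 it was 0.58, both under 1.5-fold.

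Atf4, the synthesis enzymes and the synthetases were not called at 1 h in WT. Atf4 was at 301 and 294 TPM with Ex-4 and 356 and 350.3 TPM with FSK, with log2 differences from CON of 0.12 and 0.36. None of the 5 tested genes of amino acid and folate-linked synthesis and none of the 4 synthetases was called at 1 h, with medians of -0.07 and -0.03 at Ex-4 against -0.06 over all genes. In Med14 S983A cells, 6 members rose at 1 h of Ex-4 (2.03% were called higher and 1% lower over all genes) and 8 at 1 h of FSK (3.19% were called higher and 7.2% lower), with none called lower. With FSK these included Atf4 at 0.61 ± 0.05 (SE, adjusted p = 1.2e-10) and the proapoptotic factor gene Ddit3 (CHOP) at 0.73 ± 0.06 (SE, adjusted p = 2.3e-10). Both calls were lost when libraries were scaled on the ERCC spike-in counts, where 6 members rose and 1 fell and the balance over all genes went from 328 higher and 740 lower to 260 higher and 1536 lower. The Atf4 call was lost without Med14 S983A CON replicate 2 or Med14 S983A FSK 1 h replicate 2.

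FSK exceeded Ex-4 at 1 h in WT cells for 5 of the 6 genes, tested directly between the treated groups, while over all genes 0.652% were called higher and 1.14% lower in Ex-4 than in FSK. Ex-4 minus FSK was -1.61 ± 0.10 (SE, adjusted p = 2.4e-12) for Atf3, -1.58 ± 0.06 (SE, adjusted p = 2.7e-16) for Ddit4 and -0.995 ± 0.04 (SE, adjusted p = 1.2e-14) for Ppp1r15a. Cebpb (-0.62) and Trib3 (-0.70) were also lower, and for Slc7a5 the difference was -0.15 ± 0.05 (SE, adjusted p = 0.0302), which did not pass 1.5-fold. The calls rested on single libraries for Cebpb, at -0.44 without WT Ex-4 1 h replicate 1 and -0.57 without WT FSK 1 h replicate 2, and for Trib3, at -0.56 without WT Ex-4 1 h replicate 2.

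At 8 h of Ex-4 in WT cells, 10 members rose and 1 fell, and over all genes 3.61% were called higher and 5.99% lower. The median of the members was 0.43 against -0.10 over all genes. The members that rose were Atf4, Atf5, Ddit3, Cebpb, Trib3, Ppp1r15a, Chac1, Slc7a11, Slc7a5 and Slc3a2, the heavy chain that carries Slc7a5 and Slc7a11 to the membrane. The single member called lower was Psph, the last enzyme of serine synthesis, which went from 129 and 133 TPM to 77.4 and 81.04 TPM, a log2 change of -0.72 ± 0.05 (SE, adjusted p = 2.9e-12). Under ERCC scaling that change was -0.57 and not called, 12 members rose and none fell, and over all genes 371 higher and 615 lower became 539 higher and 348 lower. The calls of Atf5 and Chac1 stood near the fold limit, at 0.58 without WT CON replicate 1 for Atf5 and 0.54 without WT CON replicate 2 for Chac1.

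At 16 h of Ex-4 in WT cells, 6 members rose and none was called lower, while over all genes 3.53% were called higher and 8.28% lower. Trib3 stood at 8.32 and 8.81 TPM and Chac1 at 11.2 and 9.77 TPM, and both lay above their CON libraries, with log2 changes of 1.71 ± 0.09 (SE, adjusted p = 8.8e-14) and 1.58 ± 0.09 (SE, adjusted p = 1e-13). Atf5 was at 780.4 and 822 TPM (0.95), Ddit3 at 75.2 and 72.8 TPM (0.69) and Atf4 at 409 and 421 TPM (0.60). The Atf4 call fell below 1.5-fold without WT CON replicate 1 or WT Ex-4 16 h replicate 2. Slc7a11, at 0.965 and 0.941 TPM, changed by 0.79 on the scale of TPM + 1 and by 8.04-fold in an edgeR fit to fragments. Atf3 had fallen from its 1 h level to 5.36 and 6.51 TPM, still above both CON libraries, and was not called in the main fit. Centring, ERCC scaling and a pseudocount of 0.1 TPM (0.61) called it higher, as did edgeR (0.78) and DESeq2 (0.81). Psat1, the transaminase of serine synthesis, stood at 56.7 and 60.00 TPM against 85.8 and 85.1 TPM in CON, a difference of -0.54 ± 0.05 (SE, adjusted p = 3.7e-10) that did not pass 1.5-fold. Scaling on ERCC counts raised the number of members that rose to 14 and turned the balance over all genes from 363 higher and 851 lower to 1002 higher and 268 lower. The median of all genes moved from -0.16 to 0.15, and the median of the members relative to it was 0.48 by TPM and 0.51 by ERCC scaling.

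With FSK nearly all members rose in WT cells at the later times. At 8 h, 22 rose and 1 fell where 8.77% were called higher and 34.8% lower over all genes. At 16 h, 23 rose and none was called lower where 10.3% were called higher and 24.1% lower over all genes. The medians were 1.19 and 1.37, against -0.34 and -0.20 over all genes. ERCC scaling left the members' counts at 22 and 1 at 8 h and at 23 and 0 at 16 h, while over all genes at 16 h it turned 1062 higher and 2478 lower into 2272 higher and 1169 lower.

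Among the transcription factors, Atf4 reached 949 and 967 TPM at 8 h and 1066 and 1116 TPM at 16 h of FSK, with log2 changes of 1.80 ± 0.05 (SE, adjusted p = 7.4e-21) and 1.99 ± 0.05 (SE, adjusted p = 1.4e-21). Ddit3, at rn6 chr7:70580252-70585074, went from 45.05 and 45.9 TPM in CON to 188 and 193 TPM and 269 and 280.3 TPM, by 2.04 and 2.57. Its transcript overlaps that of Mars1 by 62 bases on opposite strands, and whether reads were counted by strand is not given in the sources used here. Atf3 fell from its 1 h level to 17.03 and 18.3 TPM at 8 h and stood again at 54.9 and 59.8 TPM at 16 h, values which were all above CON. Trib3, at rn6 chr3:147814066-147819650, had the largest change of any member in WT on the scale of TPM + 1, reaching 33.4 and 38.1 TPM at 8 h and 90.9 and 95.9 TPM at 16 h, with a log2 change at 16 h of 5.01 ± 0.09 (SE, adjusted p = 5.6e-24).

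The kinases of eIF2alpha in the set moved apart under FSK. Eif2ak3 (PERK) rose from 19.5 and 20.04 TPM to 47.3 and 49.3 TPM at 8 h and 55.99 and 59.4 TPM at 16 h, by 1.25 and 1.498. Eif2ak4 (GCN2), the sensor of uncharged tRNA, fell from 21.8 and 20.05 TPM to 11.5 and 10.1 TPM at 8 h, a log2 change of -0.89 ± 0.06 (SE, adjusted p = 4.3e-13), and stood at -0.43 at 16 h, which was not called. Over all genes the median at 8 h was itself -0.34, and after centring on it Eif2ak4 stood at -0.50 and was not called. Ppp1r15a, which opposes the kinases, stayed high at 105 and 103 TPM and 119.6 and 128 TPM.

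Chac1, at rn6 chr3:111160205-111163425, rose with FSK to 29.1 and 31.6 TPM at 8 h and 72.02 and 73.7 TPM at 16 h, by 3.03 ± 0.09 (SE, adjusted p = 1.9e-20) and 4.27 ± 0.09 (SE, adjusted p = 3.1e-23) on the log2 scale. Vldlr, a lipoprotein receptor that ATF4 induces, rose by 0.91 and 1.27. Sesn2, a leucine sensor that restrains mTORC1, was not called in WT at any time, with log2 differences from -0.27 to 0.13 over the 6 treatments. Of the 5 enzymes of amino acid and folate-linked synthesis, 3 rose at 8 h and 4 at 16 h of FSK. Asns, asparagine synthetase, rose by 0.89 and 0.95, Psat1 by 1.002 and 1.37, and the mitochondrial folate enzyme gene Mthfd2 by 1.32 and 1.38. Shmt2, the mitochondrial serine hydroxymethyltransferase, passed only at 16 h (1.47), and Psph passed at neither time (-0.58 and 0.15).

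All 4 transporters rose at both late times of FSK. Slc7a11, at rn6 chr2:139453774-139528162, went from 0.128 and 0.133 TPM to 11.1 and 11.1 TPM at 8 h and 9.36 and 10.7 TPM at 16 h. This was a log2 change of 3.42 and 3.29 on the TPM + 1 scale and a fold of 106 and 87.0 in the edgeR fit to fragments. Slc3a2 rose by 1.42 and 1.24, Slc7a5 by 1.15 and 0.91, and the arginine transporter gene Slc7a1 by 0.90 and 0.92.

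**Figure D2:**
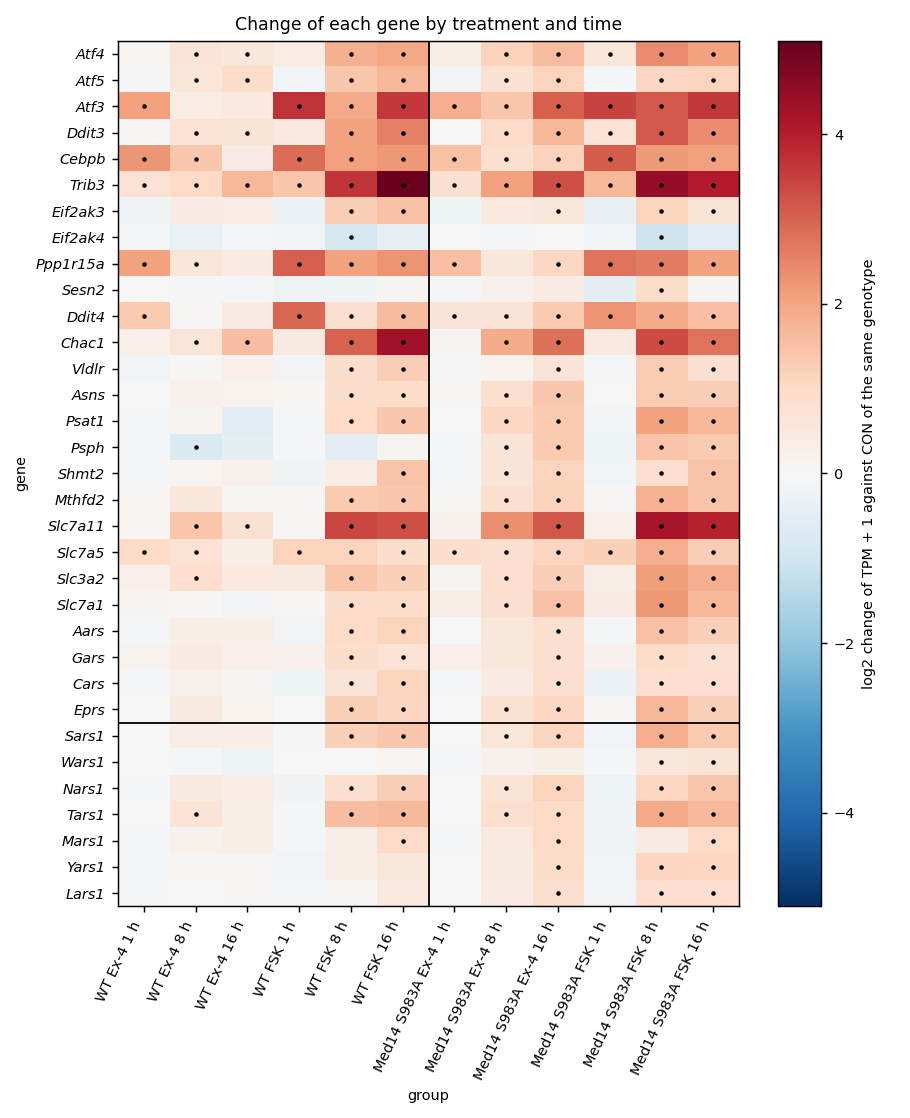
Log2 change of TPM + 1 against CON of the same genotype (colour) for the 26 tested members and, below the line, the 7 synthetase genes listed under newer symbols, in 6 treated groups of WT and 6 of Med14 S983A. Dots mark called changes; 23 members were called higher at 16 h of FSK in WT and 24 in Med14 S983A at 16 h of Ex-4.

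Compared directly in WT cells, Ex-4 gave lower levels than FSK in 18 members at 8 h and 22 at 16 h, and in none were Ex-4 levels called higher. Over all genes 23.3% were called higher and 4.77% lower at 8 h, and 11.4% were called higher and 7.29% lower at 16 h. The median Ex-4 minus FSK difference of the members was -0.76 and -1.09, against 0.23 and 0.03 over all genes. With ERCC scaling 16 members were lower at 8 h, without Aars and Asns, and 1, Eif2ak4, was higher. Over all genes 2396 higher and 490 lower became 3155 higher and 367 lower. At 16 h ERCC scaling gave 23 members lower and none higher, and 1176 higher and 749 lower over all genes became 1048 and 901. At 16 h the differences ran to -3.30 ± 0.09 (SE, adjusted p = 8.3e-20) for Trib3, -3.08 ± 0.10 (SE, adjusted p = 5.1e-19) for Atf3 and -2.69 ± 0.09 (SE, adjusted p = 1e-18) for Chac1, and Atf4 differed by -1.39 ± 0.05 (SE, adjusted p = 5.8e-18). The agents were given at 1 dose each, and no matched dose exists between them.

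In untreated cells, Med14 S983A differed from WT in 8 of the 26 members, with 7 higher and 1 lower, where 8.29% were called higher and 11.1% lower over all genes. Chac1 was at 12.3 and 12.7 TPM in Med14 S983A CON against 3.04 and 2.65 TPM in WT CON, a difference of 1.82 ± 0.09 (SE, adjusted p = 1.6e-15). Trib3 was at 7.51 and 8.27 TPM against 1.60 and 2.30 TPM (1.60 ± 0.09 SE, adjusted p = 8.9e-14), and Atf5 at 843 and 908 TPM against 408 and 417 TPM (1.08 ± 0.04 SE, adjusted p = 1e-17). For these 3 genes the mutant libraries lay above both WT libraries. Shmt2 (0.79), Ddit4 (0.69), Slc7a11 (0.67) and Psat1 (0.63) were also higher. Psat1 was at 0.57 and not called without Med14 S983A CON replicate 1. Slc7a11 was at 0.900 and 0.704 TPM against 0.128 and 0.133 TPM, 6.51-fold in the edgeR fit. Atf4 (0.42 ± 0.05 SE, adjusted p = 4.5e-08) and Ddit3 (0.29 ± 0.06 SE, adjusted p = 0.00017) did not pass 1.5-fold by TPM. Atf4 was called higher under ERCC scaling and in DESeq2 with ERCC size factors, and Ddit3 was called in neither.

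Psph was lower in untreated mutant cells, at 53.7 and 51.6 TPM against 129 and 133 TPM in WT, a difference of -1.303 ± 0.05 (SE, adjusted p = 5e-18). The 50 tested genes nearest to it on chromosome 12 of rn6 had a median difference of -0.64, whereas the neighbours of every other member lay between -0.14 and 0.07, and Psph differed from its neighbours by -0.66. Whether the neighbourhood and the Psph level have the same source was not tested. With ERCC scaling, 12 members were higher and 1 lower, and over all genes 852 higher and 1145 lower became 1357 higher and 761 lower. The members' median relative to all genes was 0.41 under both scalings. The ER chaperone genes moved with the genotype as well, with 7 of 9 higher in untreated mutant cells and a median of 0.75, and their part in the difference was not tested.

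**Figure D3:**
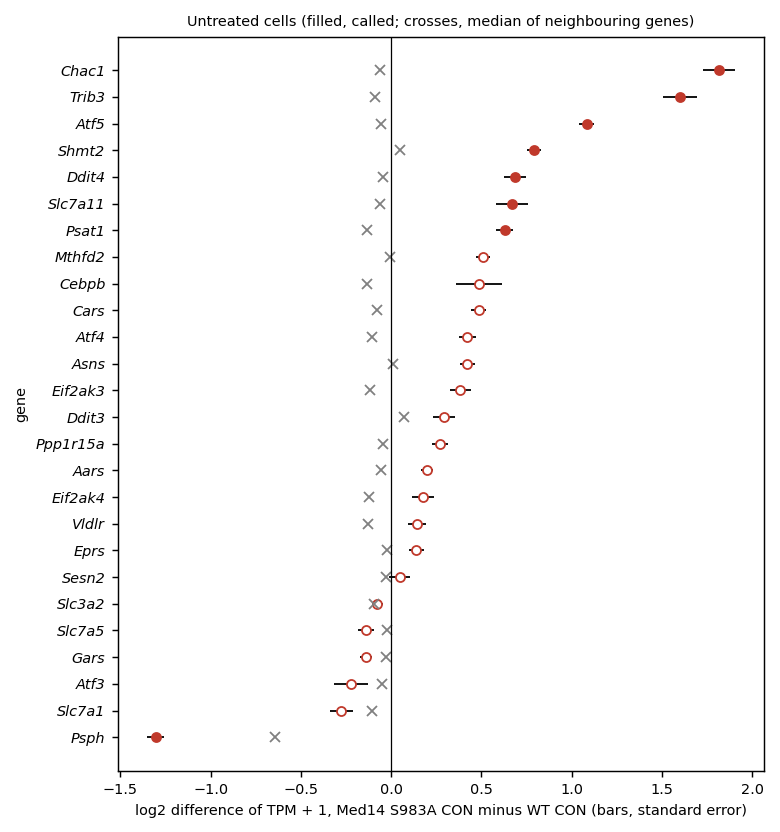
Log2 difference of TPM + 1 between Med14 S983A CON and WT CON for the 26 tested members, with the standard error of the fit (2 libraries per group), filled where called; crosses give the median difference of the tested genes nearest on the chromosome (25 on each side where available). Chac1, Trib3 and Atf5 lie farthest right, and Psph, with its neighbours at -0.64, lies farthest left.

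Ex-4 raised most members in Med14 S983A cells at the later times. At 8 h, 18 members rose (3.21% were called higher and 3.09% lower over all genes), and at 16 h, 24 of 26 rose (4.73% were called higher and 7.15% lower over all genes), with none called lower. The median of the members was 0.79 at 8 h and 1.17 at 16 h, against -0.03 and -0.06 over all genes. With ERCC scaling 22 rose at 16 h, and over all genes 486 higher and 735 lower became 377 higher and 1041 lower. The 2 members not called at 16 h by TPM were Sesn2 (0.42) and Eif2ak4 (-0.02), and the Eif2ak3 call was lost without Med14 S983A CON replicate 2 or Med14 S983A Ex-4 16 h replicate 1.

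The difference between the genotypes in the response was tested as an interaction, the change in Med14 S983A minus the change in WT. At 16 h of Ex-4, 19 of 26 members had a larger log2 change in Med14 S983A and none a smaller one past the threshold, where 5.43% were called higher and 1.81% lower over all genes. The median difference was 0.90 for the members and 0.09 over all genes. All 4 transporters and all 5 synthesis enzymes were called, with 5 of 6 transcription factors and partners, 2 of 4 synthetases, 2 of 4 other stress targets and 1 of 3 genes of the eIF2alpha kinases and phosphatase.

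Atf3 differed most. In WT it went from 3.81 and 3.86 TPM in CON to 5.36 and 6.51 TPM at 16 h of Ex-4, and in Med14 S983A from 3.36 and 2.94 TPM to 35.1 and 31.2 TPM, with an interaction of 2.52 ± 0.14 (SE, adjusted p = 5e-13). The CON libraries of the genotypes stood close together, and only the treated mutant libraries stood far above. Slc7a11 reached 16.5 and 13.8 TPM in the mutant against 0.965 and 0.941 TPM in WT, with an interaction of 2.37 ± 0.12 (SE, adjusted p = 2.5e-13) on the TPM + 1 scale and 1.28 (adjusted p = 0.000604) in the edgeR fit. Trib3 reached 86.5 and 87.00 TPM (1.60 ± 0.13 SE, adjusted p = 8.8e-10) and Chac1 94.6 and 90.8 TPM (1.21 ± 0.12 SE, adjusted p = 2.9e-08), from CON levels already higher in the mutant.

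For Psat1 and Psph of serine synthesis, WT values at 16 h of Ex-4 lay below CON by TPM and mutant values above it. Neither WT change was called. Under ERCC scaling both WT changes stayed below 0, with the lower of them at -0.21. Psat1 went from 85.8 and 85.1 TPM to 56.7 and 60.00 TPM in WT and from 139 and 127 TPM to 341 and 336 TPM in Med14 S983A, an interaction of 1.89 ± 0.07 (SE, adjusted p = 2.6e-16). Psph went from 129 and 133 TPM to 94.8 and 91.5 TPM in WT and from 53.7 and 51.6 TPM to 136 and 135 TPM in the mutant, an interaction of 1.84 ± 0.07 (SE, adjusted p = 3.8e-16). The neighbours of Psph had a median interaction of 0.11. Slc7a1 (1.61), Asns (1.20), Mthfd2 (1.10) and Shmt2 (0.92) followed, and Atf4 (0.99 ± 0.07 SE, adjusted p = 4.9e-11) and Ddit3 (1.01 ± 0.09 SE, adjusted p = 1.4e-09) were called too. Atf5, which started higher in the mutant, had an interaction of 0.17 ± 0.06 (SE, adjusted p = 0.0214), which was not called.

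**Figure D4:**
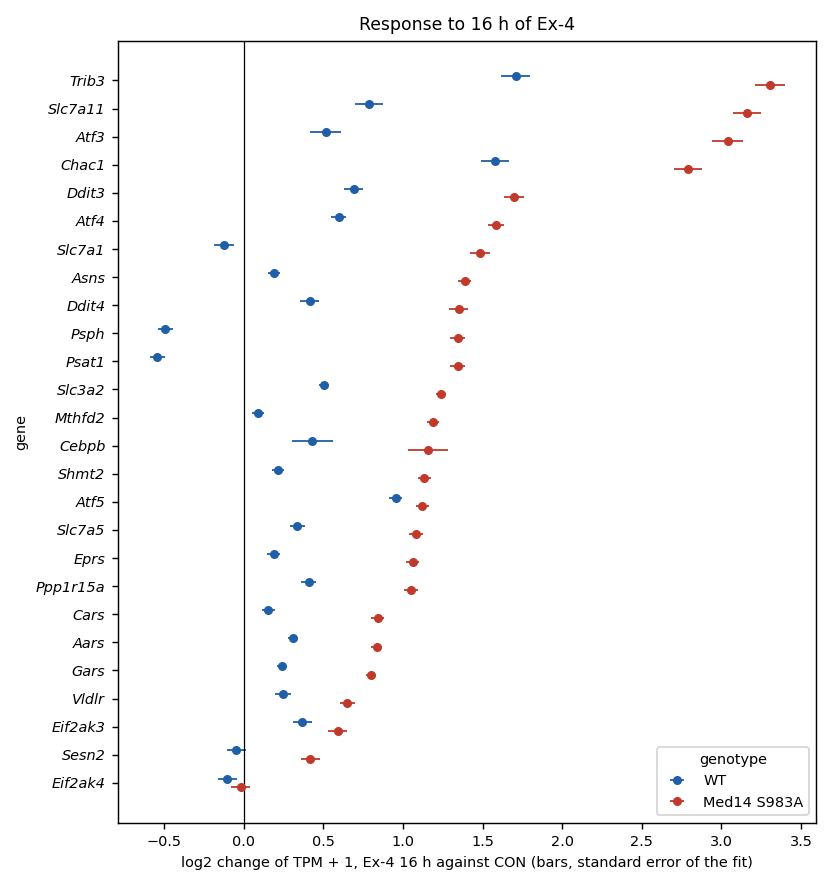
Log2 change of TPM + 1 at 16 h of Ex-4 against CON in WT (blue) and Med14 S983A (red) for the 26 tested members, with the standard error of the fit. In 26 of 26 members the change in Med14 S983A lies to the right of that in WT by TPM; after ERCC scaling this held in 22, and Atf5, Eif2ak3, Eif2ak4 and Vldlr changed sides.

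This interaction depended on the scaling of the libraries, and the study's own tests used size factors from the ERCC spike-ins. After scaling on ERCC counts, 9 of 26 members were called larger in Med14 S983A and none smaller, and the 9 were Asns, Atf3, Chac1, Mthfd2, Psat1, Psph, Slc7a1, Slc7a11 and Trib3. Over all genes the same scaling turned 558 higher and 186 lower into 138 higher and 1703 lower and moved the median from 0.09 to -0.33. The members' median relative to all genes was 0.81 by TPM and 0.78 by ERCC scaling. Atf4 was at 0.55 and Ddit3 at 0.57 under ERCC scaling, both below 1.5-fold. DESeq2 on fragments with ERCC size factors also called 9 larger, with Ddit3 among them and without Chac1, which stood at 0.57. Over all genes it called 147 higher and 1786 lower. The call of Cebpb was lost without WT CON replicate 2 and without Med14 S983A Ex-4 16 h replicate 2.

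At 8 h of Ex-4, 7 members had a larger change in Med14 S983A, where 1.98% were called higher and 0.798% lower over all genes. They were Psph (1.36), Chac1 (1.27), Trib3 (1.11), Atf3 (1.02), Slc7a11 (0.95), Psat1 (0.92) and Slc7a1 (0.76). Centring or ERCC scaling gave 7 larger and 1 smaller, and over all genes ERCC scaling turned 203 higher and 82 lower into 122 higher and 137 lower. The Slc7a11 value reversed on fragments, to -0.64 in edgeR (adjusted p = 0.0748), a gene whose WT CON level lies below the added 1 TPM. At 1 h the differences went the other way. With Ex-4, Cebpb (-0.74 ± 0.18 SE, adjusted p = 0.0284) and Ddit4 (-0.71 ± 0.08 SE, adjusted p = 4.1e-06) had smaller changes in Med14 S983A (0.341% were called higher and 0.331% lower over all genes), and with FSK Ddit4 did (-0.66 ± 0.08 SE, adjusted p = 4.3e-06, where 0.876% were called higher and 0.769% lower over all genes). ERCC scaling left the FSK count of members at 1 and turned the balance over all genes from 90 higher and 79 lower to 48 higher and 277 lower. Ddit4 went from 16.2 and 16.7 TPM to 43.9 and 42.96 TPM with Ex-4 in WT and from 26.5 and 27.8 TPM to 42.5 and 43.1 TPM in the mutant, so that the treated libraries lay close together and the CON libraries apart. The Cebpb call was lost when any of 4 libraries was left out, with values from -0.55 to -0.71: WT CON replicate 1, WT Ex-4 1 h replicate 2, Med14 S983A CON replicate 2 and Med14 S983A Ex-4 1 h replicate 1.

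With FSK, 25 members rose and 1 fell at 8 h in Med14 S983A (11.6% were called higher and 34.5% lower over all genes), and 24 rose at 16 h (12.2% were called higher and 21.1% lower over all genes). ERCC scaling left 24 members called higher at 16 h and turned the balance over all genes from 1255 higher and 2168 lower to 2101 higher and 1419 lower. Atf4 reached 1993 and 1926 TPM at 8 h and 1515 and 1513 TPM at 16 h, and Ddit3 488 and 494 TPM and 300.2 and 308 TPM. Both stood higher at 8 than at 16 h by TPM, whereas in WT both stood higher at 16 h. The 8 and 16 h groups were not tested against each other. The ERCC factors of the mutant libraries were 1.02 and 0.917 at 8 h and 1.18 and 1.26 at 16 h of FSK. With these factors the mutant Atf4 libraries of 8 and 16 h overlap, so that order depends on the scaling. Eif2ak4 again fell at 8 h (-1.06 ± 0.06 SE, adjusted p = 1.1e-14). At 8 h, 13 members had a larger change in Med14 S983A and none a smaller one (7.65% were called higher and 6.21% lower over all genes), and the count was 13 without the deepest library. The largest were Psph (2.01 ± 0.07 SE, adjusted p = 1.5e-17), Slc7a1 (1.297), Atf3 (1.16), Sesn2 (1.14), Ddit4 (1.08), Ddit3 (1.07) and Psat1 (1.04). Sesn2 was at 116 and 127 TPM in Med14 S983A CON and 247 and 220.2 TPM at 8 h of FSK, the single treated group in which it was called. The Atf4 and Ppp1r15a calls stood at 0.61 and were lost under centring, ERCC scaling and edgeR. Without Med14 S983A FSK 8 h replicate 1 they were at 0.58 and 0.57, without Med14 S983A CON replicate 2 Atf4 was at 0.58, and without Med14 S983A CON replicate 1 Ppp1r15a was at 0.57. The Trib3 call (0.85) was lost with a pseudocount of 0.1 TPM (0.49) and on fragments, at 0.44 in edgeR, 0.44 in DESeq2 and 0.38 in DESeq2 with ERCC size factors. With ERCC scaling 11 members were called larger and none smaller, and over all genes 786 higher and 638 lower became 557 higher and 937 lower.

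At 16 h of FSK the interaction had both signs. Psph (1.19), Slc7a1 (0.79), Slc7a11 (0.65) and Slc3a2 (0.61) changed more in Med14 S983A, and Chac1 (-1.49 ± 0.12 SE, adjusted p = 2.7e-10), Trib3 (-0.98 ± 0.13 SE, adjusted p = 8.9e-07) and Eif2ak3 (-0.78 ± 0.08 SE, adjusted p = 1.7e-08) changed less, where 10.6% were called higher and 6.4% lower over all genes. The median over the members was 0.0042. Chac1 stood at 72.02 and 73.7 TPM in WT FSK 16 h and 88.5 and 95.4 TPM in the mutant, so the smaller change went with a higher level in untreated mutant cells. After centring 2 members were called larger and 4 smaller, and after ERCC scaling 3 and 5, while over all genes ERCC scaling turned 1091 higher and 658 lower into 707 higher and 1059 lower. The Slc3a2 call was lost under centring (0.52), ERCC scaling (0.46), edgeR (0.52), DESeq2 (0.52) and DESeq2 with ERCC size factors (0.49). For Slc7a11 the sign reversed on fragments at both times, to -1.12 (adjusted p = 0.000209) at 8 h and -1.31 (adjusted p = 2.02e-05) at 16 h in edgeR, so a direction for this gene's FSK interaction depends on the scale. The level itself was 33.00 and 31.9 TPM in Med14 S983A FSK 8 h and 11.1 and 11.1 TPM in WT FSK 8 h.

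The tRNA synthetases, which attach each amino acid to its tRNA, were raised by FSK at the later times in WT. The 4 members Aars (alanine), Gars (glycine), Cars (cysteine) and Eprs (glutamate and proline) were not called in WT at any time of Ex-4 and were all called higher at 8 and 16 h of FSK, with changes between 0.65 and 1.22 at 8 h. Over all genes in WT, 8.77% were called higher and 34.8% lower at 8 h of FSK, and 10.3% and 24.1% at 16 h. Aars, whose promoter stretch is printed above, rose by 1.02 and 1.14 at 8 and 16 h of FSK. Eprs was at 135 and 136 TPM in WT CON, 312 and 323 TPM at 8 h of FSK and 281 and 299.5 TPM at 16 h. In Med14 S983A all 4 rose at 16 h of Ex-4 too (4.73% were called higher and 7.15% lower over all genes). Eprs went from 154 and 144 TPM to 318 and 307 TPM (1.06 ± 0.04 SE, adjusted p = 1e-16). The genotype difference in that response was called for Eprs (0.87) and Cars (0.69) and stood at 0.53 for Aars and 0.56 for Gars, and none of the 4 was called under ERCC scaling.

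The 7 cytosolic synthetases listed under newer symbols included 3 that rose in WT by 8 h of FSK. Tars1 (threonine), Sars1 (serine) and Nars1 (asparagine) were called, by 1.56, 1.23 and 0.87, and Mars1 (methionine) was called at 16 h (0.97). Over all genes in WT, 8.77% were called higher at 8 h of FSK and 10.3% at 16 h. Tars1 was also called at 8 h of Ex-4 in WT (0.71), where 3.61% were called higher over all genes. Yars1 (tyrosine), Lars1 (leucine) and Wars1 (tryptophan) were not called in WT, at 0.57, 0.50 and 0.11 at 16 h of FSK. Tars1 was at 66.8 and 68.1 TPM in WT CON and 211 and 220.2 TPM at 16 h of FSK, and Wars1 at 243 and 224 TPM and 245 and 261 TPM, so the libraries of Tars1 stood apart and those of Wars1 lay close. In Med14 S983A all 7 rose at 16 h of FSK and 6 at 16 h of Ex-4, Wars1 being the exception at 0.29. Over all genes, 12.2% were called higher and 21.1% lower at 16 h of FSK, and 4.73% and 7.15% at 16 h of Ex-4. The interaction at 16 h of Ex-4 was called for 6 of 7, from 0.71 for Tars1 to 0.88 for Yars1, with Wars1 at 0.54. Over all genes 5.43% were called higher and 1.81% lower in this test. The 6 calls are by TPM alone, and ERCC scaling moved the median over all genes from 0.09 to -0.33.

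The other synthetases were counted in the same way. Of 9 further cytosolic synthetases, 2 rose and 1 fell at 8 h of FSK in WT and 1 rose at 16 h, where 8.77% and 10.3% of all genes rose and 34.8% and 24.1% fell. Their medians were -0.03 and -0.02. Those that rose were Hars1 (histidine, 0.80 at 8 h) and Iars1 (isoleucine, 0.63 and 1.13), and Qars1 (glutamine) fell by 0.72 at 8 h. Of 15 mitochondrial synthetases, 13 fell at 8 h and 7 at 16 h of FSK in WT and none rose, with medians of -0.74 and -0.54 against -0.34 and -0.20 over all genes. Tars2 (threonine) went from 57.7 and 54.8 TPM in WT CON to 22.6 and 21.7 TPM at 8 h of FSK (-1.31 ± 0.04 SE, adjusted p = 3.9e-19), while cytosolic Tars1 rose. In Med14 S983A 13 of the 15 also fell at 8 h of FSK, where 34.5% of all genes fell. At 16 h 3 fell and 1 rose, close to the 21.1% lower and 12.2% higher over all genes.

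**Figure D5:**
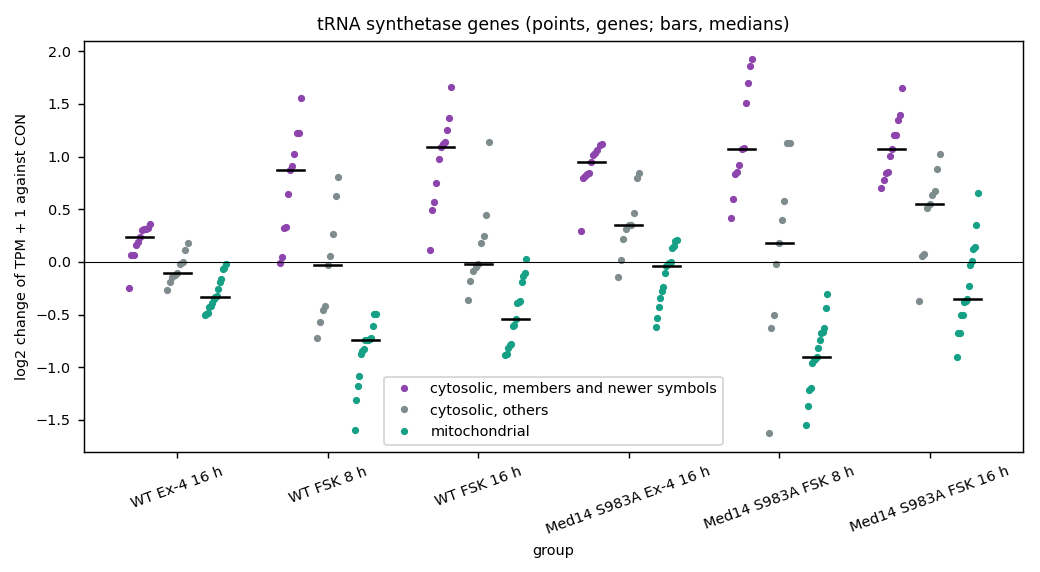
Log2 change of TPM + 1 against CON of the same genotype for 11 cytosolic tRNA synthetases (4 members and 7 under newer symbols, purple), 9 other cytosolic synthetases (grey) and 15 mitochondrial synthetases (green), each point a gene and each bar a median. At 8 h of FSK in WT the purple points have 7 called higher, while 13 of the green points were called lower. Over all genes, 8.77% were called higher and 34.8% lower in that group.

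Further genes of the ATF4 pathway outside the 36 symbols were counted in the same way. Of 17 tested, 8 rose and 5 fell at 8 h of FSK in WT, where 8.77% of all genes rose and 34.8% fell, so the share that fell lay near that of all genes. At 16 h of FSK in WT 11 rose and 1 fell (10.3% and 24.1% of all genes). At 16 h of Ex-4, 14 rose in Med14 S983A (4.73% were called higher and 7.15% lower over all genes). At the same time in WT 4 rose and 2 fell (3.53% and 8.28% of all genes), the 2 being Gadd45a and Mthfd1l. The interaction at 16 h of Ex-4 was called larger in Med14 S983A for 14 of the 17, with a median of 1.01. Over all genes 5.43% were called higher and 1.81% lower in that test. Aldh1l2, a mitochondrial folate enzyme, went from 1.75 and 1.75 TPM to 2.58 and 2.58 TPM in WT and from 6.69 and 5.65 TPM to 33.5 and 31.01 TPM in the mutant (1.83 ± 0.11 SE, adjusted p = 3.8e-12). Xpot, which exports tRNA from the nucleus, had an interaction of 1.37 ± 0.09 (SE, adjusted p = 7.5e-12). Pycr1, of proline synthesis, was at 2.21 and 1.45 TPM in WT CON and 12.02 and 12.2 TPM in Med14 S983A CON (2.23 ± 0.10 SE, adjusted p = 5.1e-16).

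For the translation machinery that the pathway acts on, few genes were called. Of 11 genes for the other eIF2alpha kinases, the eIF2 and eIF2B subunits and Ppp1r15b, none was called at 8 or 16 h of Ex-4 in WT, and 1 rose at each late time of FSK in WT. That gene was Eif2s2, the eIF2beta subunit, at 0.69 and 0.61. ER chaperones, which answer to the ATF6 and IRE1 arms of the unfolded protein response, were described alongside. In WT 8 of 9 rose at both 8 and 16 h of Ex-4 and all 9 at both late times of FSK. Over all genes, 3.61% and 3.53% were called higher at 8 and 16 h of Ex-4, and 8.77% and 10.3% at those times of FSK. At 16 h of Ex-4 the interaction was called for 1, Sdf2l1, with the smaller change in Med14 S983A (-0.92 ± 0.07 SE, adjusted p = 9.1e-11). The median interaction over the 9 was -0.32. The members' median in the same test was 0.90. Hspa5 (BiP), the main ER chaperone, was at 1051 and 1041 TPM in WT CON and 1622 and 1656 TPM at 16 h of Ex-4, and at 1982 and 1816 TPM and 2422 and 2258 TPM in Med14 S983A, an interaction of -0.35 ± 0.06 (SE, adjusted p = 0.00014), which did not pass 1.5-fold by TPM. The chaperone interactions are given by TPM alone, where 5.43% were called higher and 1.81% lower over all genes. ERCC scaling moved the median of this test over all genes from 0.09 to -0.33, toward smaller changes in Med14 S983A.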

How the data were processed

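RNA from 28 INS-1 libraries (14 groups of 2, grouped by the labels) was sequenced as paired-end, strand-specific libraries with ERCC spike-in RNA. Per the study's methods, the authors mapped reads with STAR 2.5.3a to rn6 with ERCC sequences and made TPM values over RefSeq exons with HOMER 4.11.1. The deposited table holds these TPM values per transcript, and the deposited ERCC read counts per library came from a separate counting step. For differential expression the authors used DESeq2 1.24.0 with size factors from the ERCC spike-ins. The main fit here is on TPM instead, and DESeq2 with ERCC size factors is the alternative nearest to the study's normalization. No per-sample column was left unused. For 17455 symbols the transcript with the highest mean TPM was kept, and 10275 with a mean of at least 1 TPM were tested.

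Values of log2(TPM + 1) were fitted over all 28 libraries with 14 group means and 14 residual degrees of freedom in limma 3.58.1 (empirical Bayes with trend, R 4.3.3), with Benjamini-Hochberg adjustment over all 10275 genes. Calls needed both an adjusted p under 0.05 and over 1.5-fold change. The change is on the log2(TPM + 1) scale, which understates the change of low genes. TPM multiplied by transcript length and a factor for each library gave whole reads for 100% of 179279 low values (33.7% by chance). Single reads of a fragment's pair were accepted, and the tolerance was 0.05 plus what rounding of TPM can move. On this ground edgeR 4.0.16 and DESeq2 1.42.0 were run on recovered fragments, rounded to whole numbers, as alternatives. Other alternatives were a pseudocount of 0.1 TPM, no filter, a mean of at least 5 TPM, centring on the median, scaling on ERCC counts, a fit on the libraries of the contrast alone, a replicate block and leaving out each library. Tested on simulated data for WT Ex-4 16 h (10275 genes, 200 changed), limma recovered 96% of 2-fold and 98% of 3-fold changes with 1 wrong call. In the measured libraries of that comparison, ERCC scaling turned 363 genes higher and 851 lower into 1002 higher and 268 lower. How the choice of scaling affects the number of wrong calls was not tested.

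Replicate libraries differed beyond sampling noise, with chi-square values per degree of freedom of 2.39 to 9.17, and ERCC reads were 0.671% to 1.03% of fragments. The members, gene lists and motifs were chosen with earlier results of these data known. All members present were named, with values per library for Atf4, Ddit3 and those of each role with the largest changes, and further genes came from the other lists. Promoter sequences were those of RefSeq on GRCr8, while gene positions were those of the deposited table on rn6.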

Additional observations from a re-analysis of the deposited data

Results flagged for a closer look

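The responses of Med14 S983A and WT cells differed, by the interaction term of the limma fit (adjusted p under 0.05 over all 10275 genes and over 1.5-fold), for 49 values of members. All are log2 differences of TPM + 1, the change in Med14 S983A minus the change in WT, and the comparisons share the CON libraries.

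At 1 h, differences below 0 stood at -0.74 for Cebpb and -0.71 for Ddit4 with Ex-4 and at -0.66 for Ddit4 with FSK. At 8 h of Ex-4, Atf3 (1.02), Chac1 (1.27), Psat1 (0.92), Psph (1.36), Slc7a1 (0.76), Slc7a11 (0.95) and Trib3 (1.11) changed more in Med14 S983A.

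At 16 h of Ex-4 the transcription factors and partners Atf3 (2.52), Trib3 (1.60), Ddit3 (1.01), Atf4 (0.99) and Cebpb (0.73) changed more in Med14 S983A. So did the transporters Slc7a11 (2.37), Slc7a1 (1.61), Slc7a5 (0.75) and Slc3a2 (0.73) and the enzymes Psat1 (1.89), Psph (1.84), Asns (1.20), Mthfd2 (1.10) and Shmt2 (0.92). The others were Chac1 (1.21), Ddit4 (0.94), Eprs (0.87), Cars (0.69) and Ppp1r15a (0.64).

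At 8 h of FSK the values were Psph (2.01), Slc7a1 (1.297), Atf3 (1.16), Sesn2 (1.14), Ddit4 (1.08), Ddit3 (1.07), Psat1 (1.04), Trib3 (0.85, not called on fragments or with a pseudocount of 0.1 TPM), Slc7a11 (0.80), Slc7a5 (0.72), Slc3a2 (0.70), Atf4 (0.61) and Ppp1r15a (0.61). At 16 h of FSK, Psph (1.19), Slc7a1 (0.79), Slc7a11 (0.65) and Slc3a2 (0.61, not called under centring, ERCC scaling, edgeR or DESeq2) changed more and Chac1 (-1.49), Trib3 (-0.98) and Eif2ak3 (-0.78) less in Med14 S983A. The Slc7a11 values at 8 h of Ex-4 and at 8 and 16 h of FSK turned negative in fits to fragments, and the cause of the genotype differences was not tested.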

How the results depend on the processing

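Of 332 counts of called members recomputed under the alternatives, 317 stayed within 1.5 times. For WT Ex-4 16 h, with 6 called, centring gave 11, ERCC scaling 14, DESeq2 11 and DESeq2 with ERCC size factors 14. For WT FSK 1 h, with 6 called, DESeq2 gave 10. For untreated Med14 S983A against WT, with 8 called, ERCC scaling gave 13 and DESeq2 with ERCC size factors 14. For the Ex-4 16 h interaction, with 19 called, both gave 9. Of these, Chac1 was called only under ERCC scaling and Ddit3 only in DESeq2 with ERCC size factors. For the Ex-4 1 h interaction, with 2 called, no filter and DESeq2 with ERCC size factors gave 1, and leaving out a library gave 1 to 2. The cause was not tested.

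Among 283 calls of members, edgeR lost 8 and gained 20, a pseudocount of 0.1 TPM lost 4 and gained 5, ERCC scaling lost 20 and gained 22, and 15 calls were lost without at least 1 library. Slc7a11 alone reversed. Its Ex-4 8 h interaction was -0.64 in edgeR, -0.65 in DESeq2 and -0.73 in DESeq2 with ERCC size factors. At 8 h of FSK the interaction of Slc7a11 was -0.42 with a pseudocount of 0.1 TPM, -1.12 in edgeR, -1.11 in DESeq2 and -1.17 with ERCC size factors, and at 16 h of FSK it was -0.56, -1.31, -1.30 and -1.35.

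Replicate numbers gave no pairing: over 91 pairs of groups the deviations of same-numbered libraries correlated between -0.28 and 0.28 (median 0.0035), and the replicate block lost 0 and gained 0 calls of members. With 2 libraries per group, a lone library left by an omission was assumed to vary like the other groups, and members under 1 TPM could not be compared at this depth.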

Other observations

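Among the 15 mitochondrial tRNA synthetases, 3 were called lower within 1 h in WT, and they were singled out after their values were seen. Over all genes in WT, 1.12% were called lower at 1 h of Ex-4 and 4.94% at 1 h of FSK. Pars2, which charges tRNA with proline in mitochondria, went from 11.97 and 10.2 TPM in WT CON to 6.56 and 6.31 TPM at 1 h of Ex-4 and 3.56 and 3.74 TPM at 1 h of FSK. The log2 changes of Pars2 were -0.70 ± 0.08 (SE, adjusted p = 1.5e-07) and -1.37 ± 0.08 (SE, adjusted p = 1.4e-13) in the limma fit, and in Med14 S983A they were -0.89 and -1.93. Hars2, for histidine, was called lower at 1 h of FSK in both genotypes, by -0.98 ± 0.06 (SE, adjusted p = 2.2e-12) in WT and -0.82 ± 0.06 (SE, adjusted p = 5.6e-11) in Med14 S983A. Lars2, for leucine, was called in WT alone at 1 h of FSK, at -0.62 ± 0.07 (SE, adjusted p = 1.7e-07), against -0.46 ± 0.07 (SE, adjusted p = 1e-05) in Med14 S983A, and this difference between the genotypes was 0.16 ± 0.10 (SE, adjusted p = 0.492).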
